A study of Mus musculus with 6 samples.

Results

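The thioredoxin, glutaredoxin, peroxiredoxin, glutathione peroxidase, superoxide dismutase and methionine sulfoxide reductase genes were followed in the mouse retina with and without Nxnl2. They were taken by symbol from the probe sets that name a single gene, together with catalase (Cat), glutathione reductase (Gsr) and the glutathione synthesis genes Gclc, Gclm and Gss. Each gene was represented by its probe set with the highest mean over 6 arrays, which gave 46 of the 18193 genes measured. No filter on low values was applied, so all 46 entered the fit. Prdx1 was not analysed here, because its 5 probe sets also name Gm21399, and Prdx5 and Prdx6 had no probe set that names them alone. For Glrx3, 4 further probe sets also name Gm12669 and were not used.

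Retinas taken at post-natal day 40 from BALB/c AJ mice, and by the labels free of pigment epithelium, were hybridised to one-colour arrays, and 3 arrays carry wild-type (wt/wt) and 3 carry homozygous Nxnl2 knockout (ko/ko) RNA by their labels. The sources used here do not give how the allele was made or whether an array holds 1 animal or a pool. Markers of pigment epithelium were nonetheless bright in the 5 arrays other than retina_ko/ko_rep3, with Rpe65 (log2 intensity) at 10.15, 10.82 and 9.90 in wild type and 9.54 and 10.02 in the knockout. The p-values weigh a group difference against the scatter between arrays, some of which may be technical, and the number of arrays limits their precision. Whether that scatter is between single animals or between pools cannot be told.

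Thioredoxins are small proteins that reduce disulfides in other proteins through a pair of active-site cysteines and are recharged by thioredoxin reductases with electrons from NADPH. Peroxiredoxins and glutathione peroxidases remove hydrogen peroxide and lipid peroxides, the former with electrons from thioredoxin and the latter mostly with electrons from glutathione. The retina is rich in oxygen, light and polyunsaturated lipids, and photoreceptors depend on such enzymes for the repair of oxidised outer segment components. Nxnl2, itself a thioredoxin-like gene of photoreceptors, encodes rod-derived cone viability factor 2.

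The array titled retina_ko/ko_rep3 stood apart from the other 5 and is given separately throughout. Over probe sets it correlated with the others at 0.853 at most, and they with one another at 0.994 or more. Nxnl2 (brighter probe set, log2 intensity) read 11.38, 11.45 and 11.42 in wild type, 3.78 and 3.73 in knockout replicates 1 and 2, and 9.21 in that array, which goes against its label, although it lies 2.21 below the wild-type mean. All 5 measured rod markers lay more than 2-fold below wild type there, with a median difference of -9.65 (log2), and all 5 olfactory and airway markers lay more than 2-fold above, with a median of 9.81. The remaining knockout arrays kept the rod markers at the wild-type level (mean deviation -0.06 and 0.01). The comparison below therefore sets 3 wild-type arrays against knockout replicates 1 and 2, a choice made with these values known.

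Across the 46 redox genes, no transcript passed the test between wild-type retina and knockout replicates 1 and 2. By limma with Benjamini-Hochberg adjustment over all genes, 0 of the 46 passed an adjusted p of 0.05, where 0.011% of all genes did, among them Nxnl2 (adjusted p = 1.1e-09). The adjusted p was 0.999 for each of the 46. The knockout mean was higher for 30 genes and lower for 16, against 51.9% of all genes higher, and the median log2 change was 0.03 against 0.00 over all genes. Changes ran from -0.30 (Gpx3) to 0.24 (Gpx5). The 95% interval of the change lay within 0.5 log2 units of 0 for 44 of the 46 genes, against 91.4% of all genes, and within 1 unit for all 46. In bulk tissue, fewer cells of a type and less RNA per cell cannot be told apart.

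The 5 arrays were also close to each other gene by gene. For 44 of the 46 genes the lowest and highest of the 5 values lay less than 0.5 apart, against 89.3% of all genes, and Gpx3 and Msrb3 were the exceptions. The median wild-type SD was 0.08, against 0.10 over all genes. Above the highest Bacillus control probe set of every one of the 5 arrays, a mark of background since these controls match no mouse transcript, stood 44 of the 46, against 72% of all genes. The remaining genes were Gpx6 and Txndc8, a thioredoxin of sperm.

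**Figure D1:**
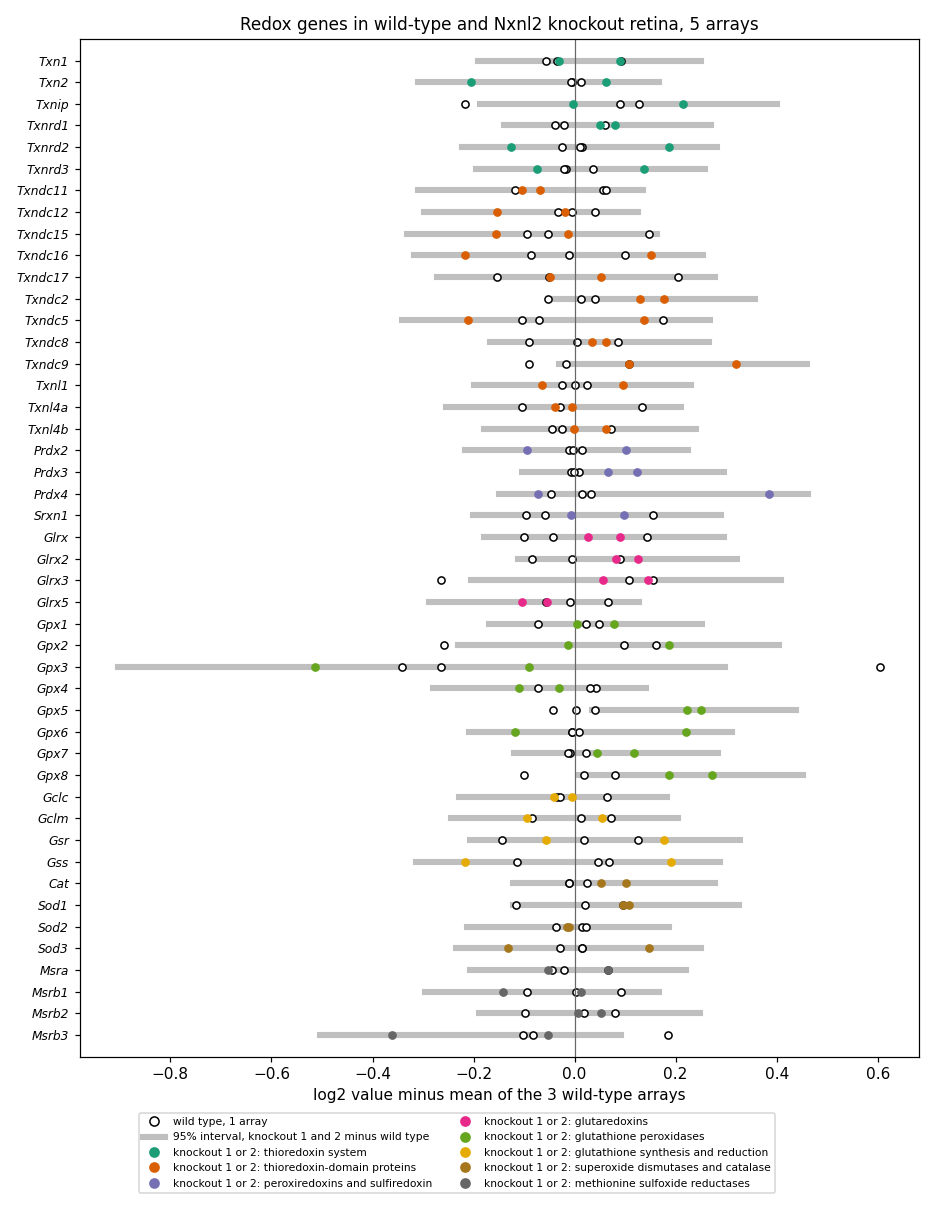
Each row is one redox gene and the horizontal axis is its log2 value minus the mean of the 3 wild-type arrays. Open circles are wild-type arrays, filled circles are knockout replicates 1 and 2 coloured by family, and grey bars are the 95% interval of the knockout minus wild-type change by limma. Nearly every bar crosses 0, Gpx5 and Gpx8 are the ones that do not, and the widest bar is that of Gpx3, from -0.90 to 0.30.

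Within the thioredoxin system proper, the changes of the 6 genes ran from -0.07 (Txn2) to 0.11 (Txnip), 5 of them upward, and none passed. Cytosolic thioredoxin (Txn1) read 9.68, 9.66 and 9.81 in wild type and 9.68 and 9.80 in knockout replicates 1 and 2. The knockout values lay inside the wild-type range, with a change of 0.03 (SE 0.10, 95% interval -0.19 to 0.25). Its inhibitor Txnip, an arrestin-like protein that binds thioredoxin and limits glucose uptake, read 6.64, 6.68 and 6.34 in wild type and 6.55 and 6.77 in the knockout. The groups overlapped, wild-type replicate 3 being the lowest of the 5 arrays, and the change was 0.11 (95% interval -0.19 to 0.40).

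The reductases lay as close. Txnrd1, the cytosolic selenoenzyme that recharges Txn1, read 8.14, 8.16 and 8.24 in wild type against 8.23 and 8.26 in the knockout, a change of 0.07 (95% interval -0.14 to 0.27). In the mitochondrion, thioredoxin 2 (Txn2) stood at -0.07 and its reductase Txnrd2 at 0.03. For both, knockout replicate 1 was the lowest and knockout replicate 2 the highest of the 5 arrays. Txnrd3, the reductase of testis, stood at 0.03.

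Among the 12 thioredoxin-domain and thioredoxin-like genes, 6 were higher and 6 lower in the knockout, with a median change of -0.01 and none with an unadjusted p under 0.05. The largest change was that of Txndc9, a regulator of the chaperonin that folds actin and tubulin. It read 9.30, 9.18 and 9.10 in wild type and 9.51 and 9.30 in the knockout, so that knockout replicate 2 lay level with the highest wild-type array. Its change was 0.21 (95% interval -0.03 to 0.46), and its other probe sets gave 0.11 and 0.24. The sperm thioredoxin gene Txndc2 stood at 0.15, with knockout values of 4.94 and 4.99 above wild-type values of 4.76 to 4.85. The endoplasmic reticulum members Txndc5, Txndc11, Txndc12, Txndc15 and Txndc16 lay between -0.09 and -0.03.

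By their brightest probe sets, the peroxiredoxins and their repair enzyme were all slightly above the wild-type mean, by 0.00 to 0.16. Of all genes 51.9% were higher, and none of these passed. Prdx2, a cytosolic peroxiredoxin, stood at 0.00. Mitochondrial Prdx3 read 8.93, 8.92 and 8.92 in wild type and 8.99 and 9.05 in the knockout. Both knockout arrays lay above the narrow wild-type range, but the change was only 0.10 (95% interval -0.10 to 0.29). Prdx4, the peroxiredoxin of the secretory pathway, read 7.03, 7.09 and 7.11 in wild type and 7.46 in knockout replicate 2, while knockout replicate 1 lay just under the wild-type range. Its change was 0.16 (95% interval -0.15 to 0.46). Knockout replicate 2 is also the array in which the 4 skeletal muscle markers lay on average 2.26 above the wild-type mean, against -0.21 in the other knockout array (summed linear intensity 799 and 162, against 163 to 238 in wild type). The part of muscle tissue in the Prdx4 value was not tested. Sulfiredoxin (Srxn1), which restores overoxidised peroxiredoxins, stood at 0.05. The other probe set of Prdx2 gave -0.09, those of Prdx4 -0.05 to 0.20 and those of Srxn1 -0.06 to 0.08.

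Of the 4 glutaredoxins, 3 lay above and 1 below the wild-type mean, and none passed. Mitochondrial Glrx2 stood at 0.10, its other probe sets at 0.14 and 0.02, and cytosolic Glrx at 0.06. Glrx5, which serves iron-sulfur cluster assembly in mitochondria, stood at -0.08. The single-gene probe set of Glrx3 stood at 0.10, with wild-type replicate 3 at 5.56 and the other 4 arrays between 5.88 and 5.98.

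Glutathione peroxidases held the members with the smallest unadjusted p and the most variable one. Of the 46 genes 2, Gpx5 and Gpx8, had an unadjusted p under 0.05, both higher in the knockout, where 3.45% of all genes did (1.84% higher and 1.62% lower). Gpx5, a secreted peroxidase best known from the epididymis, read 4.92, 4.87 and 4.96 in wild type and 5.14 and 5.17 in the knockout. The groups did not overlap, and the change was 0.24 (SE 0.09, limma unadjusted p = 0.0272, adjusted p = 0.999), although these values lie less than 1 log2 unit above the Bacillus controls. Gpx8, an endoplasmic reticulum member, read 6.56, 6.63 and 6.45 in wild type and 6.82 and 6.73 in the knockout, again without overlap. Its change was 0.23 (SE 0.10, limma unadjusted p = 0.0437, adjusted p = 0.999). In the same 2 knockout arrays the 4 microglia markers lay on average 0.53 and 0.15 above the wild-type mean (summed linear intensity 701 to 943, against 622 to 675 in wild type), and their part in these values was not tested.

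Gpx4, the peroxidase that repairs lipid hydroperoxides in membranes, read 12.60, 12.59 and 12.49 in wild type against 12.45 and 12.53 in the knockout. The groups overlapped and the change was -0.07 (95% interval -0.28 to 0.14). Gpx1, the main cytosolic form, stood at 0.04, Gpx2 at 0.09 and Gpx7 at 0.08. Plasma glutathione peroxidase (Gpx3) read 6.62, 7.56 and 6.69 in wild type and 6.44 and 6.87 in the knockout. Wild-type replicate 2 alone was high, by 0.70 above the next array, and without it the change went from -0.30 to 0.00. The same array held the highest lens marker level (summed linear intensity of 4 of 4 markers 9613, against 1337 to 1516 in knockout replicates 1 and 2 and 1434 in the lowest wild-type array). Its 4 pigment epithelium markers were also highest there, on average 0.46 above the wild-type mean (summed linear intensity 12807, against 7027 to 9323 in the knockout and 7871 in the lowest wild-type array). The part of either tissue in the Gpx3 value was not tested.

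The changes of the genes that make and recycle glutathione were within 0.06 of 0. Gclc, the catalytic subunit of the rate-limiting ligase, read 8.39, 8.48 and 8.39 in wild type and 8.38 and 8.42 in the knockout. Its change was -0.02 (95% interval -0.23 to 0.18), and that of the regulatory subunit gene Gclm was -0.02 (95% interval -0.25 to 0.21). Glutathione synthetase (Gss) stood at -0.01 and glutathione reductase (Gsr) at 0.06. The single higher member of the 4 was thus Gsr, whose other probe set stood at -0.11.

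Superoxide dismutases and catalase, the first enzymes to act on superoxide and the peroxisomal enzyme that splits peroxide, stood at changes of -0.01 to 0.10, and none passed. Mitochondrial Sod2 read 10.13, 10.08 and 10.14 in wild type and 10.11 and 10.10 in the knockout, the narrowest spread of the 46 genes. The change was -0.01 (95% interval -0.21 to 0.19). Cytosolic Sod1 read 10.68, 10.89 and 10.81 in wild type and 10.89 and 10.90 in the knockout, a change of 0.10, while its next probe set gave -0.07. Catalase read 7.56, 7.59 and 7.56 in wild type against 7.67 and 7.62 in the knockout, and its change was 0.08 (95% interval -0.12 to 0.28). Extracellular Sod3 stood at 0.01.

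Methionine sulfoxide reductases repair oxidised methionine, MsrA for one stereoisomer and the MsrB enzymes for the other. Msra, Msrb1 and Msrb2 stood at 0.01, -0.06 and 0.03. Msrb3, of the endoplasmic reticulum, read 5.98, 6.26 and 6.00 in wild type and 6.03 and 5.72 in the knockout. Knockout replicate 2 was the lowest of the 5 arrays, the change was -0.21 (95% interval -0.50 to 0.09), and the other Msrb3 probe set gave -0.03.

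Counted by overlap, both knockout arrays lay above all 3 wild-type arrays for 7 genes (Cat, Gpx5, Gpx7, Gpx8, Prdx3, Sod1 and Txndc2), where 9.19% of all genes did. They lay below all 3 for 0 genes, where 7.27% of all genes did, and in either direction the share over all genes was 16.5%. For Sod1 the groups only just did not overlap (10.886 in wild-type replicate 2, 10.887 in knockout replicate 1). Its other probe sets gave changes of -0.25 to 0.10, and the other Cat probe set gave -0.01. Of the 28 genes with several probe sets, all probe sets had one sign for 12. On chromosome 13, where the reference also places Nxnl2, lie 6 of the 46 genes (Glrx, Gpx5, Gpx6, Gpx8, Txndc5 and Txndc15). Of these 4 were higher and 2 lower, with a median change of 0.05.

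Among relatives and partners of these families, Nxnl2 was the gene that passed. Nxnl1, the paralog that encodes the first rod-derived cone viability factor, read 8.45, 8.49 and 8.58 in wild type and 8.44 and 8.70 in the knockout, a change of 0.07 (95% interval -0.18 to 0.31). Nucleoredoxin (Nxn) stood at -0.07. Of 18 measured genes with a related fold, among them the protein disulfide isomerases, 8 were higher and 1 passed, which was Nxnl2 itself. Of 8 measured genes that supply NADPH, 5 were higher with a median of 0.02, and of 14 NRF2 target and regulator genes 9 were higher with a median of 0.04, and none passed in either list. Selenoprotein synthesis (7 genes, 4 higher) had a median of 0.01. Thioredoxin clients such as the kinase gene Map3k5 (7 genes, all 7 higher, by 0.00 to 0.20) had one of 0.07, where 51.9% of all genes were higher. None passed in either list.

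Glutathione transferases and other users of glutathione (22 genes) had a median of -0.02 with 10 higher and 0 passing. Gsta4, Gstm1 and Gstp1 are in this list and in that of NRF2 targets and regulators. Of these 22 genes, 3 had an unadjusted p under 0.05, where 3.45% of all genes did. Glo1, a glyoxalase that uses glutathione, read 12.01, 11.84 and 11.87 in wild type and 11.55 and 10.68 in the knockout, without overlap, at -0.79 (limma unadjusted p = 0.00542, adjusted p = 0.999). The transferase genes Mgst2 and Gsta2 stood at 0.41 and -0.44, with wild-type means of 3.50 and 4.67. Mgst2 lay below the highest Bacillus control on all 5 arrays, and Gsta2 lay near it. Nqo1, a quinone reductase and NRF2 target, read 5.87, 5.77 and 5.46 in wild type and 5.36 and 5.45 in the knockout. The groups only just did not overlap (5.458 in wild-type replicate 3, 5.455 in knockout replicate 2), where 16.5% of all genes did not. Its change of -0.29 (limma adjusted p = 0.999) was the lowest of the 14 NRF2 targets and regulators, of which 9 were higher. In the list of Txnip-like arrestins and their glucose-sensing regulators, 4 of 6 genes were higher with a median of 0.11 and 0 passed. An unadjusted p under 0.05 was seen for 2 of the 6, Mlxipl at 0.23 (wild-type mean 4.28, near the Bacillus controls) and Arrdc2. The lowest was Arrdc2, a paralog of Txnip, at 6.62, 6.58 and 6.54 in wild type against 5.79 and 6.13 in the knockout (change -0.62, SE 0.12, limma adjusted p = 0.681).

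**Figure D2:**
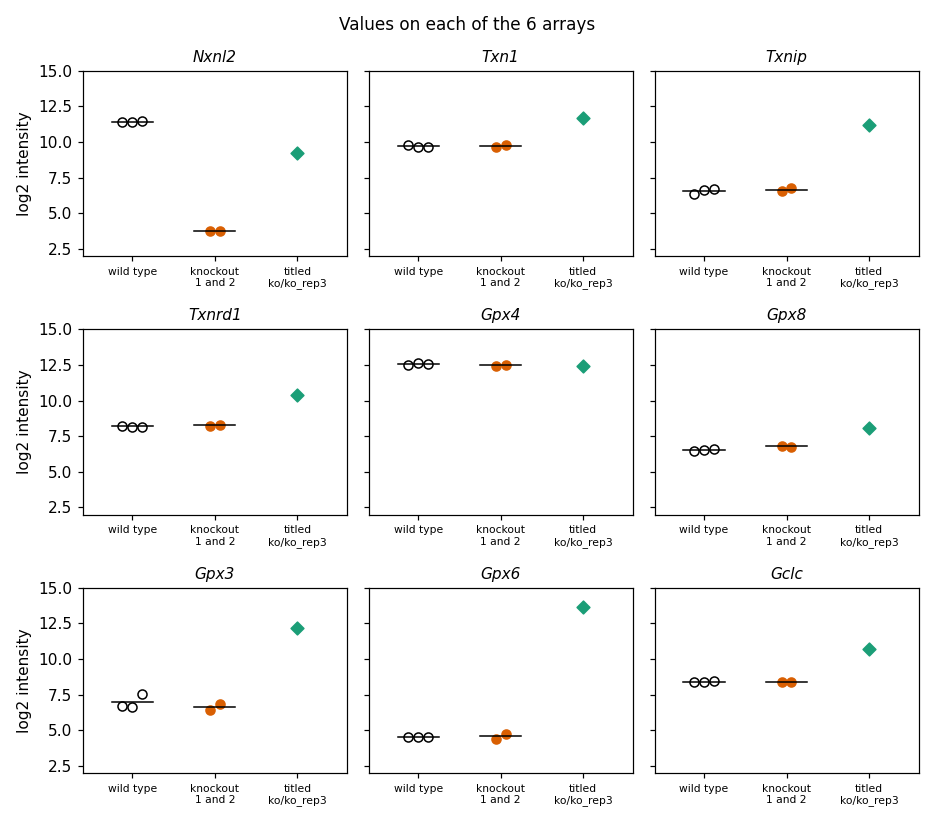
Each panel plots the log2 intensity of one gene on the 6 arrays, with open circles for wild type, filled circles for knockout replicates 1 and 2, a diamond for the array titled retina_ko/ko_rep3, and lines for group means. Nxnl2 alone of these 9 genes clearly separates wild type from knockout replicates 1 and 2 at this scale, while the diamond lies far above the other arrays for Txnip, Gpx3 and Gpx6 and level with them for Gpx4.

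With all 6 arrays as labelled, 3 against 3, again 0 of the 46 redox genes passed, and 0% of all genes did. One of the 46, Gpx5, had an unadjusted p under 0.05 (change 0.25, limma unadjusted p = 0.0308, adjusted p = 0.745), where 0.726% of all genes did. The median SE over the 46 genes was 0.20 in this fit against 0.10 in the fit of 5 arrays. For Gpx6 the mean difference was 3.09 with a larger SE than for any other of the 46 genes.

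In the array titled retina_ko/ko_rep3, 17 of the 46 redox genes read more than 2-fold above wild-type retina, 6 of them glutathione peroxidases. With 1 array there is no replicate check and no test, so differences from the wild-type mean are given as they stand, for a gene more than 2-fold away and outside the range of the other 5 arrays. Above wild type by this measure lay those 17 genes, where 15.8% of all genes did, and below it 0, where 11.5% of all genes did. The median difference was 0.50 over the 46 genes and -0.05 over all genes. In all, 32 genes lay above the wild-type mean and 14 below it. Of the 5 rod markers 3 were not above the highest Bacillus control in this array (summed linear intensity 90.3, against 78052 to 80512 in wild type), and olfactory and airway markers were high (summed linear intensity of 5 of 5 markers 52526, against 74 to 91 in the other arrays). Their part in these differences was not tested.

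**Figure D3:**
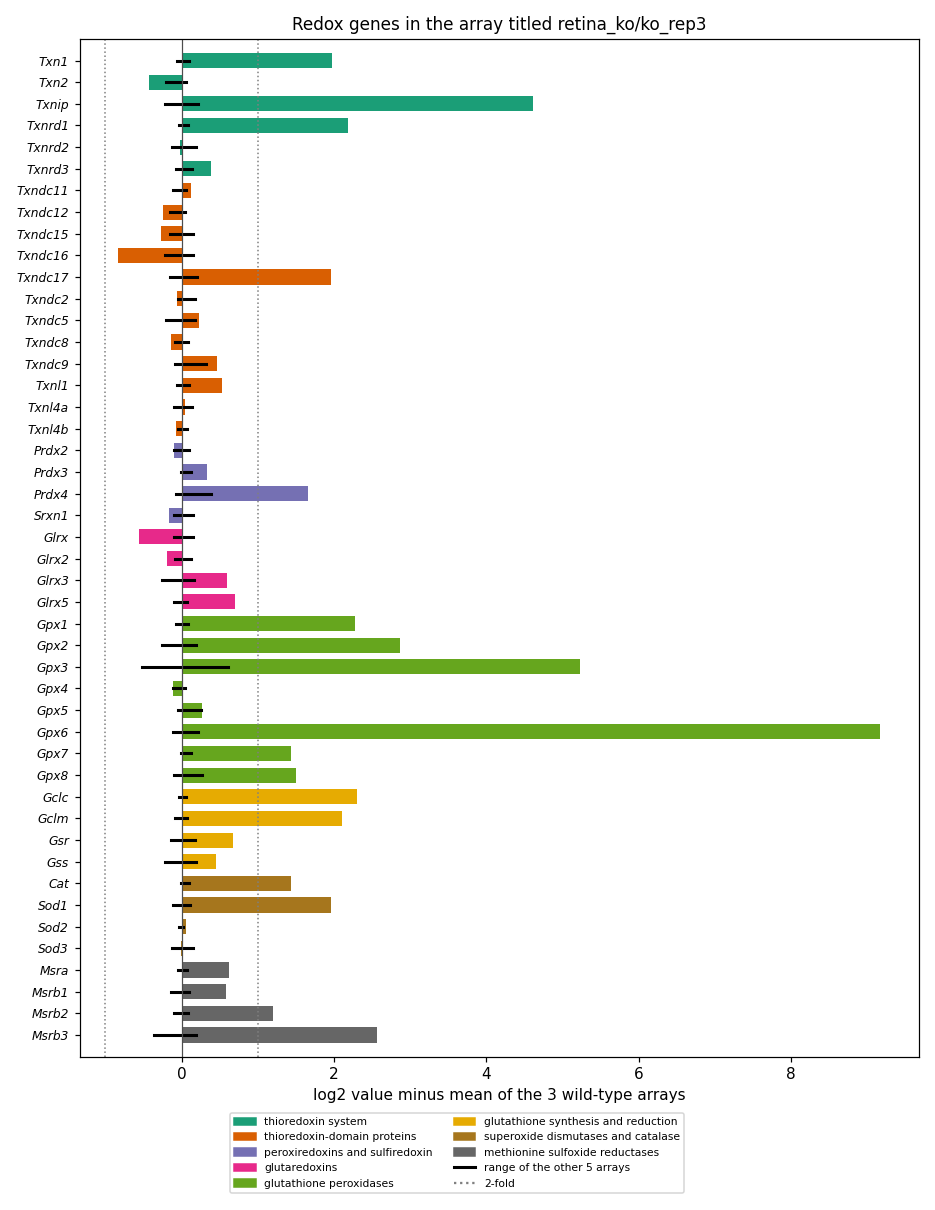
Bars give the log2 value of the array titled retina_ko/ko_rep3 minus the mean of the 3 wild-type arrays for each redox gene, coloured by family. Black lines are the range of the other 5 arrays and dotted lines mark 2-fold. Gpx6 at 9.17, Gpx3 at 5.22 and Txnip at 4.61 stand out, and the lowest bar is Txndc16 at -0.84.

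Of the 8 glutathione peroxidase genes, 6 lay more than 2-fold higher in this array. Gpx6, a secreted peroxidase known from olfactory epithelium, read 13.69 there against 4.40 to 4.74 in the other 5 arrays. Those 5 values lie at the level of the Bacillus controls (4.18 to 4.60), so the difference of 9.17 is measured against background. Gpx3 read 12.18 there, against 6.44 to 7.56 elsewhere, a difference of 5.22 (37.3-fold). Gpx2, the form of gut and other epithelia, read 9.04 (difference 2.87, 7.29-fold), and Gpx1 11.32 (2.27, 4.84-fold). The endoplasmic reticulum members Gpx7 and Gpx8 differed by 1.44 and 1.51. Gpx4 did not follow them, at 12.45 against 12.45 to 12.60, and neither did Gpx5 at 5.19.

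Cytosolic Txnip, Txn1 and Txnrd1 read higher as well, and mitochondrial Txn2 and Txnrd2 did not. Txnip read 11.16 against 6.34 to 6.77 in the other 5 arrays, a difference of 4.61 (24.4-fold), and its other probe set gave 3.37. Txn1 read 11.69 against 9.66 to 9.81 (difference 1.98, 3.94-fold), and Txnrd1 10.36 against 8.14 to 8.26 (difference 2.18, 4.53-fold). The dimmer probe set of Txn1 read 5.27 against a wild-type mean of 5.28, and those of Txnrd1 differed by 0.00 and 0.05, so that the difference rests on the brightest probe set of each. Txn2 lay 0.43 below wild type and Txnrd2 0.02 below. Txndc17, a cytosolic thioredoxin-related disulfide reductase, read 9.74 (difference 1.96), with 3 of its 4 probe sets more than 2-fold higher. It was the single one of the 12 thioredoxin-domain genes to do so. The lowest of them was Txndc16 at 8.36, against 8.98 to 9.35 elsewhere.

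Both subunits of the rate-limiting ligase lay higher, Gclc at 10.72 (difference 2.30, 4.92-fold) and Gclm at 9.91 (4.30-fold), and so did both probe sets of each. Gss and Gsr differed by 0.45 and 0.67, the other Gsr probe set by 1.20. Sod1 read 12.76 (difference 1.96) and Cat 9.01 (1.44), while Sod2 at 10.18 and Sod3 at 5.04 lay within 0.06 of the wild-type mean. The other probe sets of Sod2 differed by 0.23, -0.87 and -0.98, that of Sod3 by -0.39, and those of Sod1 by 0.21 to 2.08. Prdx4 read 8.73 (difference 1.66, its other probe sets 0.05 to 2.81), but Prdx2, Prdx3 and Srxn1 differed by -0.10, 0.34 and -0.16. Msrb3 read 8.64 (difference 2.56) and Msrb2 7.20 (1.19), while Msra and Msrb1 differed by 0.62 and 0.59. None of the 4 glutaredoxins lay past 2-fold, and Glrx was the lowest at -0.57.

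By the place of the protein in the cell, 9 of 18 cytosolic, 6 of 13 secretory pathway or secreted, 1 of 7 mitochondrial and 1 of 8 remaining members (Cat) lay more than 2-fold above wild type, beside 15.8% of all genes. Their median differences were 1.31, 0.27, 0.06 and -0.01. The members were sorted into these places after their values had been seen, so the contrast is a description only. The mitochondrial one was Msrb2, the lowest of the 17 at 1.19, and the next gene under 2-fold was Glrx5 at 0.71. Of the 10 higher genes with several probe sets, all probe sets exceeded 2-fold for 5 (Cat, Gclc, Gclm, Msrb3 and Txnip). Of the other lists, beside the same 15.8% of all genes above and 11.5% below, 10 of 14 NRF2 targets and regulators lay more than 2-fold above wild type and 0 below (median 2.35, Nqo1 at 4.98). Of 22 glutathione users 14 lay above and 1, Ggct at -1.31, below (median 1.97). These lists are not separate, since Gsta4 (2.76), Gstm1 (5.12) and Gstp1 (-0.14) are in both. Of 8 NADPH suppliers 4 lay above and 1, malic enzyme Me1 at -1.84, below (median 1.13). Of the 18 genes with a related fold 2 lay above and 4 below (median -0.04), and of the 7 thioredoxin clients 1 above and 2 below (median 0.18). Of the 6 Txnip-like arrestins and their glucose-sensing regulators 4 lay above and 0 below (median 1.11). The highest of them was the glucose-sensing transcription factor gene Mlxip at 2.75. Of the Txnip paralogs, Arrdc4 differed by 2.32, Arrdc3 by 0.70 and Arrdc2, the lowest of the list, by -0.82. Selenoprotein synthesis genes had a median of -0.28 with 0 of 7 past 2-fold. Nxnl1 lay 2.98 below wild type.

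**Figure D4:**
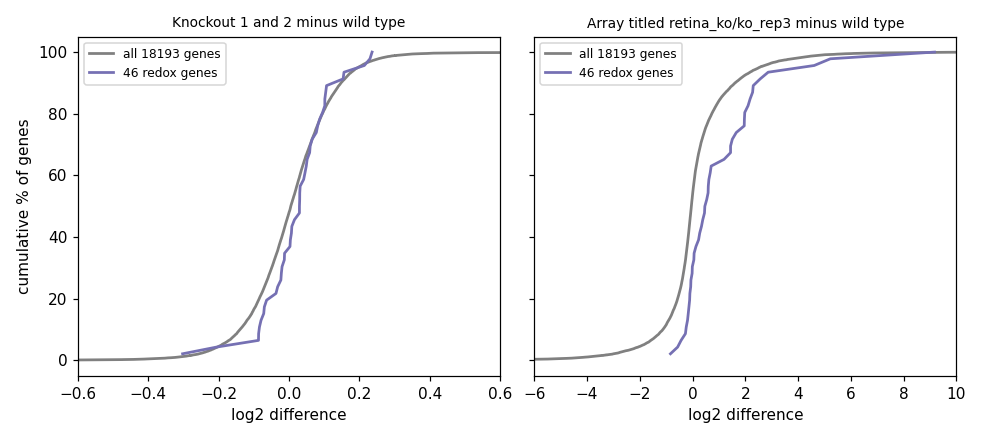
Lines give the cumulative percentage of genes against the log2 difference, for all 18193 genes in grey and the 46 redox genes in purple. On the left, for knockout replicates 1 and 2 minus wild type, both lines run close together. Their medians are 0.03 for the redox genes and 0.00 for all genes. On the right, for the array titled retina_ko/ko_rep3 minus wild type, the redox genes lie to the right of all genes, with medians of 0.50 and -0.05, and the left axis range is much narrower than the right.

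Promoter sequences are shown for the members that were more than 2-fold higher in that array and carry one of 2 motifs, so that the letters can be read beside the values. The motifs were the antioxidant response element core TGACNNNGC, the site of NRF2, and the E-box CACGTG, the core of sites for many basic helix-loop-helix factors. Both strands were read over the 250 bases before the start in RefSeq (GRCm38.p6), and 40 of the 46 genes had an entry. The first motif stood in 6 of the 40 genes (15%), against 11.5% of all genes and 10.2% of all promoters with an entry. The second stood in 4 of the 40 (10%), against 6.86% of genes and 6.02% of promoters. Of 16 higher genes with an entry, 3 held the first motif (Gclm, Txnrd1 and Sod1) and 2 the second (Gpx6 and Prdx4). The remaining carriers were not past 2-fold in that array. They were Txndc11 (0.13), Txndc2 (-0.06) and Txndc5 (0.23) for the first motif, and Glrx2 (-0.19) and Txndc9 (0.47) for the second. A match is a description of the letters, not a site. In the sequences below, written 5′ to 3′ on the gene's strand, capitals mark the match. Txnrd1 has several listed starts, and the one with the match is shown.
Gclm promoter (chr3:122245307-122245556, + strand): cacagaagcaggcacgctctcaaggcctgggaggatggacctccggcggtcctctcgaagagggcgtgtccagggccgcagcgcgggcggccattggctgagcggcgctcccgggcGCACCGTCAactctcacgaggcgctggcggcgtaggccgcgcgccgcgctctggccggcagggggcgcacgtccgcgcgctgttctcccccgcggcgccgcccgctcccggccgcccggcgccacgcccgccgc
Txnrd1 promoter (chr10:82858956-82859205, + strand): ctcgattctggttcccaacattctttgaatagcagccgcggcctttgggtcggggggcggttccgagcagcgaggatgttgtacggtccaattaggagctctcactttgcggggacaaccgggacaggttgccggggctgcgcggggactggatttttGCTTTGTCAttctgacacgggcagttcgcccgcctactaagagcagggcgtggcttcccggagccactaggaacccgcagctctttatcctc
Sod1 promoter (chr16:90220512-90220761, + strand): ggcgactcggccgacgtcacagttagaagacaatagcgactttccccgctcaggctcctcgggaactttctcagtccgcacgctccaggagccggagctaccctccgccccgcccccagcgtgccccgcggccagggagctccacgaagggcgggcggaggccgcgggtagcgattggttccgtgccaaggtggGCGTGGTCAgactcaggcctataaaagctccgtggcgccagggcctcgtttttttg
Gpx6 promoter (chr13:21311953-21312202, + strand): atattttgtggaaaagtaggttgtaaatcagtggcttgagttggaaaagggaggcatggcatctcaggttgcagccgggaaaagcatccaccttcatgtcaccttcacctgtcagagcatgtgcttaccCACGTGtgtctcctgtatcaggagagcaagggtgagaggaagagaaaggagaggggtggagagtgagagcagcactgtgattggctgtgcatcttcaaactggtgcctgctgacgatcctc
Prdx4 promoter (chrX:155338461-155338710, - strand): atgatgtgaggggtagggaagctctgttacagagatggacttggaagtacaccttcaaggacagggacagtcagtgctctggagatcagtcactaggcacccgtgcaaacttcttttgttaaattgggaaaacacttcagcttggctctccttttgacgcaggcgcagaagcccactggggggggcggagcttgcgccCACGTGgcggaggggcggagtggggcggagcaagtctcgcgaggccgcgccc

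The match in Gclm begins 134 bases before the start and that in Txnrd1 92 bases before it, while that in Sod1 begins 56 bases before it. All these first-motif matches read in the reverse direction. In knockout replicates 1 and 2 the same 5 genes stood between -0.02 (Gclm) and 0.16 (Prdx4), and none passed.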

How the data were processed

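Total RNA of mouse retina was labelled as biotinylated cRNA and hybridised to one-colour Affymetrix arrays, per the labels' protocols. The authors deposited log2 values from RMA, per the submitters' processing notes. RMA forces all arrays to nearly one distribution, so changes in total RNA cannot be seen. The software and chip definition behind it: not given in the sources used here. All 6 value columns were used without further scaling.

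Of 45037 probe sets other than controls, 34945 name 1 gene, and the one with the highest mean over 6 arrays stood for each of 18193 genes. All 46 members matched RefSeq names by Entrez identifier. The genotypes were compared in R 4.3.3 with lmFit and eBayes of limma 3.58.1, two-sided, adjusted by Benjamini-Hochberg over all genes, with a threshold of 0.05. The fit was tested on simulated data. Figures used matplotlib 3.10.9.

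The members, lists and choice of arrays were made with earlier results of these data known, and cell compartments were assigned after the values had been seen. Named genes were Nxnl2, Nxnl1, Txn1, Txnip, the founding members of each family, members with an unadjusted p under 0.05, the 8 largest changes, and the 8 highest and 8 lowest differences in the array titled retina_ko/ko_rep3. Other genes named were chosen after their values were seen. Alternatives were a trend with robust fit, array weights, another quantile normalization, arrays centred at their 75th percentile or median, genes under the 40th percentile of mean level removed, the replicate block, each array left out, other probe-set rules, all probe sets, and a threshold of 0.1.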

Additional observations from a re-analysis of the deposited data

How the results depend on the processing

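No redox gene passed in any of the 17 alternatives on the 5 arrays or the 18 on all 6. In the 5 arrays, the 2 redox genes with an unadjusted p under 0.05 became 0 with trend and robust options or the most variable probe set. The count was 1 with array weights (Gpx5), with dim genes removed (Gpx8, Gpx5 being among those removed) and with all probe sets tested (Gpx5). It was also 1 with the replicate block, where it was Gpx3 at -0.43 and neither of the 2. In the 5 arrays wild-type replicate 3 has no partner, so the block leaves it out of the change. Gpx5 (0.26) and Gpx8 (0.18) thus changed as they did without that array. The Gpx3 value there rests on wild-type replicates 1 and 2, the latter being its high array. Leaving out single arrays gave 0 to 2, among them Msrb3 and Prdx4 without knockout replicate 1 and Txndc9 without knockout replicate 2, in place of Gpx5 and Gpx8. The change of Gpx5 ranged from 0.21 to 0.26 and that of Gpx8 from 0.18 to 0.27. The count of all genes called went from 2 to 1 with the mean of all probe sets, and to 5 with all probe sets tested. Leaving out single arrays gave 1 to 8 (1 without wild-type replicate 3, and 8 without knockout replicate 1 or 2, where the lone knockout array is taken to scatter as wild type does). With 6 arrays that count went from 0 to 2 with array weights, and leaving out single arrays gave 0 to 2 (2 without knockout replicate 3). The cause of these moves was not tested. Whether the replicate numbers pair the arrays cannot be told from these values. With 6 arrays, same-numbered deviations correlated at -0.07, -0.01 and -0.08, but around a knockout mean that includes the array titled retina_ko/ko_rep3. With 5 arrays, the deviations of the 2 knockout arrays are equal and opposite, so their correlations cannot show pairing either. The block gave 3 genes with 5 arrays and 0 with 6. In the array titled retina_ko/ko_rep3, 17 redox genes past 2-fold became 9 past 2 log2 units, by construction, and ranged from 15 to 17 otherwise. Signals near the Bacillus controls, as for Gpx6 in retina, limit what can be seen.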
